A study of Homo sapiens with 6 samples.

Results

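The genes described here are the 32 genes of the ATF4 stress response and amino acid supply, taken by gene symbol from the 20030 names of the count table. All 32 were found and all 32 passed the filter on low counts. Sequenced mRNA came from KGN, an established human cell line derived from a granulosa tumour of the ovary, labelled wild type apart from the knockdown and harvested 48 h after transfection. There were 3 libraries of cells given siRNA against SNHG5, a long noncoding RNA, and 3 libraries of cells given negative control siRNA. All 6 libraries therefore come from 1 cell line that had been transfected, and the labels name no untransfected cells. The series title places SNHG5 in polycystic ovary syndrome, and the knockdown was profiled to learn which transcripts it affects. The level of SNHG5 was not analysed here, and the extent of its loss is not given.

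ATF4 is the transcription factor at the centre of the integrated stress response. Stress kinases phosphorylate the initiation factor eIF2, which slows most protein synthesis while ribosomes translate ATF4 mRNA more, so the protein can change without its mRNA. ATF4 binds DNA as a dimer, often with C/EBP family partners, and raises genes that import amino acids, make serine, asparagine and proline, run mitochondrial one-carbon metabolism and shut the response off again. The same genes supply amino acids and nucleotide precursors to growing cells.

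A DNA element bound by ATF4 with C/EBP partners is written here as TGATGNAA, or TTNCATCA on the other strand. It was searched on both strands in the RefSeq promoter windows (GRCh38.p14) that run from 250 bases before to 50 after each start. Of the 32 genes, 27 had at least 1 window and 7 of these (25.9%) held a match, against 539 of the 14994 genes of the count table with a window (3.59%). The genes had been picked as ATF4 response genes, so the higher share is a description. NUPR1, PSPH, SHMT2, ALDH1L2 and PYCR1 were not among the genes with a window. The matches are shown because they lie in genes that fell, rose or did not pass, each on the strand of its gene with the matching letters in capitals.
CHAC1 (chr15:40953251-40953280, plus strand): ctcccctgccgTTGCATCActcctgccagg
SLC1A5 (chr19:46784893-46784922, minus strand): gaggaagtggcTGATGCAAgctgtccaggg
SLC1A4 (chr2:64989381-64989410, plus strand): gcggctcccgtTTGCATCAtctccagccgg
SLC3A2 (chr11:62881725-62881748, plus strand): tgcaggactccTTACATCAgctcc
SLC7A1 (chr13:29595663-29595692, minus strand): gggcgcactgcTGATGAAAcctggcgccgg
ASNS (chr7:97872458-97872487, minus strand): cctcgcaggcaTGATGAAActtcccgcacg
CEBPG (chr19:33374060-33374089, plus strand): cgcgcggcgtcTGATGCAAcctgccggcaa
CHAC1, SLC1A5, SLC1A4 and SLC3A2 fell, SLC7A1 rose, and ASNS and CEBPG did not pass, with values given below. The match lay at -209 to -202 from the start in CHAC1, at -68 to -61 in ASNS, at -42 to -35 in CEBPG and at -97 to -90 in SLC1A5. It crossed the start in SLC1A4 and lay after it in SLC7A1, at 8 to 15, and in SLC3A2, at 38 to 45. SLC1A5 and SLC3A2 had 3 windows each and SLC1A4, ASNS and CEBPG had 2 each, with 1 match per gene. The start is that of the matching window, which need not be the main start of the gene. Counted by window, 7 of 43 (16.3%) held a match, against 2.68% of the windows of genes in the count table.

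With SNHG5 siRNA, 17 of the 32 genes fell, 3 rose and 12 did not pass edgeR's quasi-likelihood test at a Benjamini-Hochberg adjusted p under 0.05. Over all 12508 genes tested, 40.2% passed, 19.9% as lower and 20.3% as higher. Among the 10468 genes with a mean of at least 5 CPM (counts scaled to library size), a level that all 32 genes reached, 20.4% were lower and 23.1% were higher. The median log2 fold change, SNHG5 siRNA minus control siRNA, was -0.14 over the 32 genes and -0.01 over all genes tested. With upper quartile scaling, which moved the share of higher genes among all calls to 39.9% from the 50.5% of TMM scaling, 19 of the 32 fell and 2 rose, while 24.7% of all tested genes were lower and 16.4% higher. Most of these changes were small, and in bulk libraries a lower level in each cell and fewer cells with the transcript cannot be told apart. Only CHAC1 and STC2 passed with a fall of at least 1.5-fold, 2 of 32 genes, where 4.59% of all tested genes did. Groups did not overlap in CPM in 24 of the 32 genes, 21 lower and 3 higher, against 49.8% of all tested genes, 24.8% lower and 25% higher. For each of these 24 genes the exact permutation p (2-sided, on CPM) was 0.1, the smallest that 3 against 3 libraries can give.

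**Figure D1:**
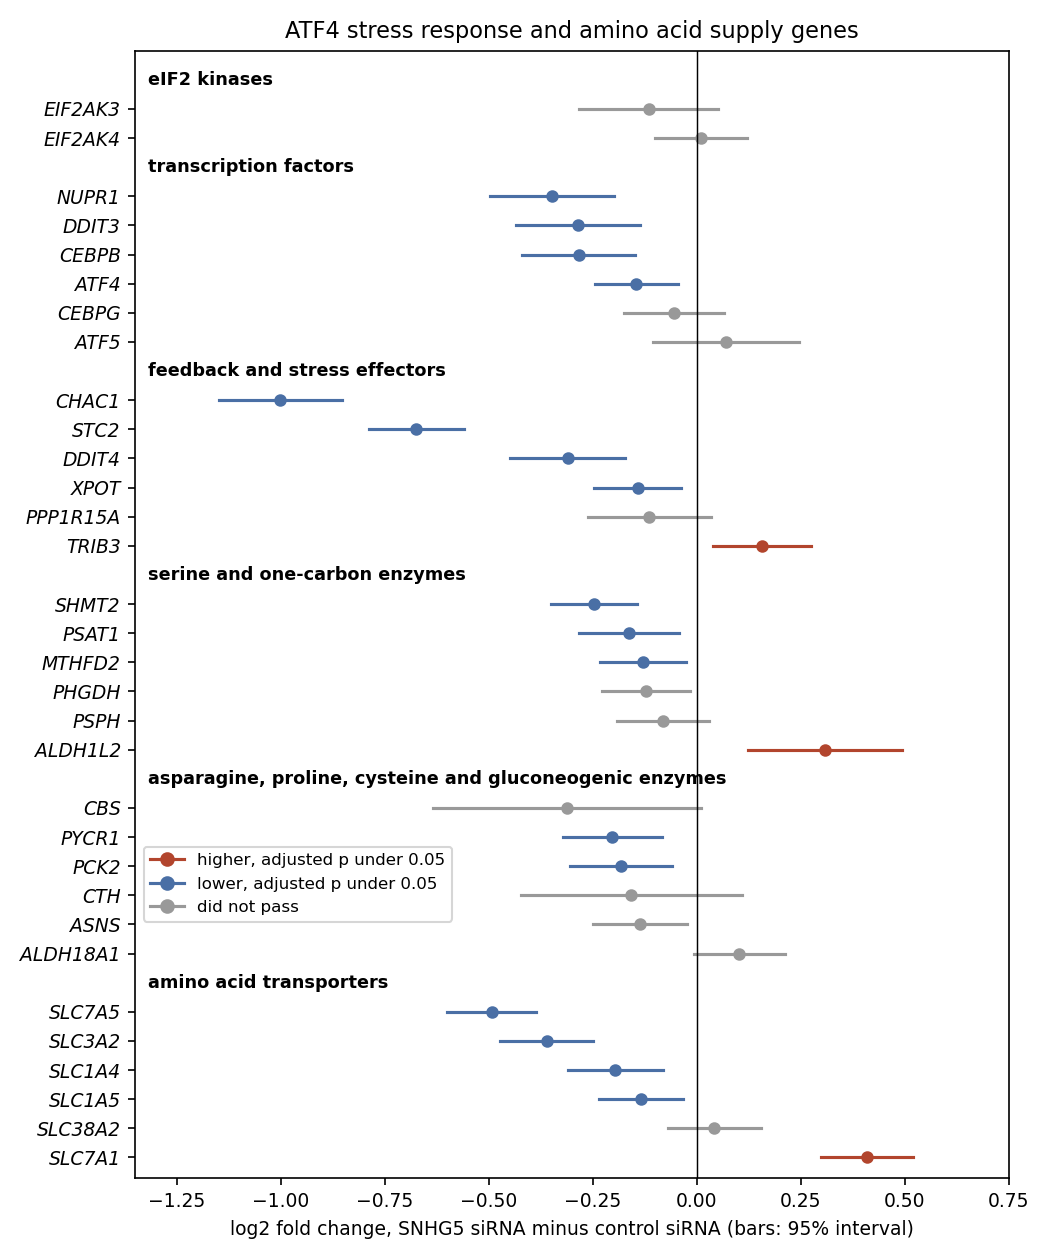
Log2 fold change of each of the 32 genes, SNHG5 siRNA minus control siRNA (points, edgeR fit of 3 libraries a group) with its 95% interval (bars), ordered by role. CHAC1 at -1.001 and STC2 at -0.67 stand furthest to the left, and SLC7A1 at 0.41, ALDH1L2 at 0.31 and TRIB3 at 0.16 are the genes that passed to the right of 0.

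Total counts ranged from 18232634 to 22088913 per library, where 3 counts equal 0.135 to 0.165 CPM. Replicates are as the labels number them, with nothing to say whether they were separate cultures, and the p-values therefore speak of the spread among these libraries alone, which may be technical. Replicate 2 of the SNHG5 siRNA group stood apart: its deviation from the group mean had a Spearman correlation of -0.51 with transcript length across genes (genes are not independent replicates), against -0.27 to 0.41 in the other 5 libraries. Without it, 18 of the 32 genes fell and 3 rose, while 21.7% of all tested genes were lower and 22.8% higher. In control siRNA replicate 3 the deviation went with GC content, at a Spearman rho of -0.47, against -0.14 to 0.32 in the other 5 libraries. Leaving that library out, 15 of the 32 genes fell and 1 rose, while 16.4% of all tested genes were lower and 17.7% higher. GC content and log2 fold change were correlated across tested genes, with a Spearman rho of -0.23, and the median GC content was 52.7% over the 32 genes and 48.2% over all tested genes. With the trend on GC content removed, 13 of the 32 genes fell and 3 rose, with a median of -0.15. Of all tested genes, 18.9% were then lower and 19.5% higher. Of the granulosa markers, FOXL2 had 24.1 to 33.6 CPM, NR5A1 35.0 to 39.1 CPM and GATA4 79.5 to 108 CPM over the 6 libraries, while AMHR2, INHA and CYP19A1 were too low to be tested. CD3E of T cells, CDH5 of endothelium and DDX4 of germ cells were at 0 in every library. Other leukocyte and endothelial markers were detected at low levels. PTPRC of leukocytes had 1.81 to 2.75 CPM over the 6 libraries. VWF of endothelium had 1.31 to 2.01 CPM, and PECAM1 of endothelium had 0.101 to 0.361 CPM. Of the 12 markers of other cell types, 4 were high enough to be tested and did not pass, the nearest being CD68, at 19.5 to 27.2 CPM, with a log2 fold change of 0.22 (edgeR adjusted p = 0.0508). Of 10 tested granulosa markers 4 fell and 6 did not pass, where 19.9% of all tested genes were lower. FST fell by 1.42, FSHR by 1.15, NR5A2 by 0.93 and GATA4 by 0.37 on the log2 scale. FSHR was low, at 1.47 ± 0.354 CPM with SNHG5 siRNA and 3.25 ± 0.242 CPM with control siRNA (SD, n = 3 each). So was NR5A2, at 1.45 ± 0.450 CPM with SNHG5 siRNA and 2.78 ± 0.451 CPM with control siRNA (SD, n = 3 each).

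The 2 eIF2 kinase genes among the 32, EIF2AK3 and EIF2AK4, did not pass. EIF2AK3, the endoplasmic reticulum stress sensor also called PERK, had 28.3, 25.1 and 28.1 CPM with SNHG5 siRNA and 31.2, 27.1 and 30.0 CPM with control siRNA. Its log2 fold change was -0.12, with a 95% interval from -0.28 to 0.05 (edgeR adjusted p = 0.263). EIF2AK4, also called GCN2, which senses uncharged tRNA, had 143, 135 and 148 CPM with SNHG5 siRNA and 143, 138 and 142 CPM with control siRNA. The interval of its log2 fold change ran from -0.10 to 0.12 around 0.01, and the groups overlapped in both genes. Of the other eIF2 kinases, named after their values were seen, EIF2AK1 rose by 0.21 (edgeR adjusted p = 0.00196), with 219.5, 209 and 214 CPM with SNHG5 siRNA and 182, 185 and 188 CPM with control siRNA. EIF2AK2 had -0.07 and did not pass (edgeR adjusted p = 0.368).

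Of the 6 transcription factor genes, 4 fell and 2 did not pass. ATF4 (chromosome 22, 39519695 to 39522685, plus strand, GRCh38) had 349, 374 and 354 CPM with SNHG5 siRNA and 403, 391 and 397 CPM with control siRNA. Every SNHG5 siRNA library lay below every control library, and the log2 fold change was -0.15 ± 0.05 (SE; edgeR adjusted p = 0.0217), a 1.11-fold lower level. That call was weak: with the trend on GC content removed it was -0.10 (edgeR adjusted p = 0.128), and it also ended on FPKM and without SNHG5 siRNA replicate 1 (-0.12) or 3 (-0.13) or control siRNA replicate 1 (-0.13) or 2 (-0.16). The mRNA says nothing of ATF4 protein, which was not measured.

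NUPR1, a small stress-induced cofactor of transcription, fell furthest of the 6. Its level was 33.5, 31.4 and 29.4 CPM with SNHG5 siRNA and 42.1, 39.1 and 39.0 CPM with control siRNA, a log2 fold change of -0.35 ± 0.07 (SE; edgeR adjusted p = 0.000712). On FPKM it was -0.22 and did not pass. DDIT3, which encodes the pro-apoptotic factor CHOP (chromosome 12, 57516588 to 57521737, minus strand), had 29.2, 28.9 and 27.2 CPM with SNHG5 siRNA and 32.8, 36.2 and 35.0 CPM with control siRNA. In DDIT3 too the groups did not overlap, and its log2 fold change of -0.29 passed under every alternative tried. The exons of DDIT3 share 355 bases with MARS on the other strand, and the counting is not stated to use strand, so reads from the shared stretch cannot be told apart. The same holds for MTHFD2, which shares 1324 exon bases with SLC4A5, and ALDH1L2, which shares 145 with C12orf45.

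CEBPB, a C/EBP factor that pairs with ATF4, had 65.2, 74.7 and 71.5 CPM with SNHG5 siRNA and 81.1, 83.9 and 92.3 CPM with control siRNA. It fell by 0.28 on the log2 scale (edgeR adjusted p = 0.0017). CEBPB is the most GC-rich of the 32 genes, at 66.2%, and with the GC trend removed its value was -0.15 (edgeR adjusted p = 0.0785), and on FPKM it was -0.10. CEBPG, another C/EBP partner of ATF4, had 67.8 ± 2.62 CPM with SNHG5 siRNA and 70.4 ± 2.44 CPM with control siRNA (SD, n = 3 each), and the interval of its log2 fold change ran from -0.18 to 0.07. ATF5, a related factor whose translation is raised by the same stresses, had 29.5, 37.2 and 32.5 CPM with SNHG5 siRNA and 31.7, 33.1 and 29.6 CPM with control siRNA, with an interval from -0.11 to 0.24. Its highest library was SNHG5 siRNA replicate 2, and its exons share 626 bases with NUP62 on the other strand.

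Among the feedback genes and stress effectors, 4 of 6 fell and TRIB3 rose. CHAC1, an enzyme that breaks down glutathione (chromosome 15, 40952962 to 40956519, plus strand), had 21.8, 24.7 and 23.5 CPM with SNHG5 siRNA and 47.0, 45.4 and 47.5 CPM with control siRNA. Its highest SNHG5 siRNA library was far below its lowest control library. The fall was 2.001-fold, a log2 fold change of -1.001 ± 0.07 (SE; edgeR adjusted p = 2.6e-09), and over all alternatives it ranged from -1.04 to -0.80.

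STC2, which encodes the secreted glycoprotein stanniocalcin 2 (chromosome 5, 173314713 to 173329503, minus strand), had 206, 186 and 208 CPM with SNHG5 siRNA and 332, 319 and 307 CPM with control siRNA. The libraries of each group lay close together, and STC2 fell 1.60-fold, with a log2 fold change of -0.67 ± 0.05 (SE; edgeR adjusted p = 1.66e-08). DDIT4, which encodes an inhibitor of the growth kinase complex mTORC1 also called REDD1, had 235, 207 and 244 CPM with SNHG5 siRNA and 311, 264 and 275 CPM with control siRNA. Its log2 fold change of -0.31 passed, while its replicates were more spread, with SDs of 19.0 CPM with SNHG5 siRNA and 24.6 CPM with control siRNA, and the call ended on log2(FPKM + 0.1), at -0.23. XPOT, which carries tRNA out of the nucleus, had 444 ± 20.7 CPM with SNHG5 siRNA and 489.7 ± 17.5 CPM with control siRNA (SD, n = 3 each), a fall of 0.14 on the log2 scale whose call ended without SNHG5 siRNA replicate 1 (-0.15) or control siRNA replicate 1 (-0.14) or 3 (-0.12).

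TRIB3, which encodes a pseudokinase that restrains ATF4 and CHOP and is itself a target of both, went the other way. It had 84.0, 82.6 and 87.5 CPM with SNHG5 siRNA and 79.1, 73.6 and 75.2 CPM with control siRNA, so the groups did not overlap. The rise was 1.11-fold, with a log2 fold change of 0.16 ± 0.06 (SE; edgeR adjusted p = 0.0314). Its GC content was 60.9%, and removal of the GC trend gave 0.25 on the log2 scale, whereas with upper quartile scaling it was 0.12 and did not pass (edgeR adjusted p = 0.102). The call also ended without SNHG5 siRNA replicate 1 (0.16) or 3 (0.13) or control siRNA replicate 2 (0.13) or 3 (0.15). PPP1R15A, the phosphatase subunit that reverses eIF2 phosphorylation and is also called GADD34, had 53.7, 44.5 and 46.4 CPM with SNHG5 siRNA and 54.0, 53.2 and 49.4 CPM with control siRNA. The value of SNHG5 siRNA replicate 1 lay within the control range, and the interval of the log2 fold change ran from -0.26 to 0.03. Without that library it was -0.20 (edgeR adjusted p = 0.0465).

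**Figure D2:**
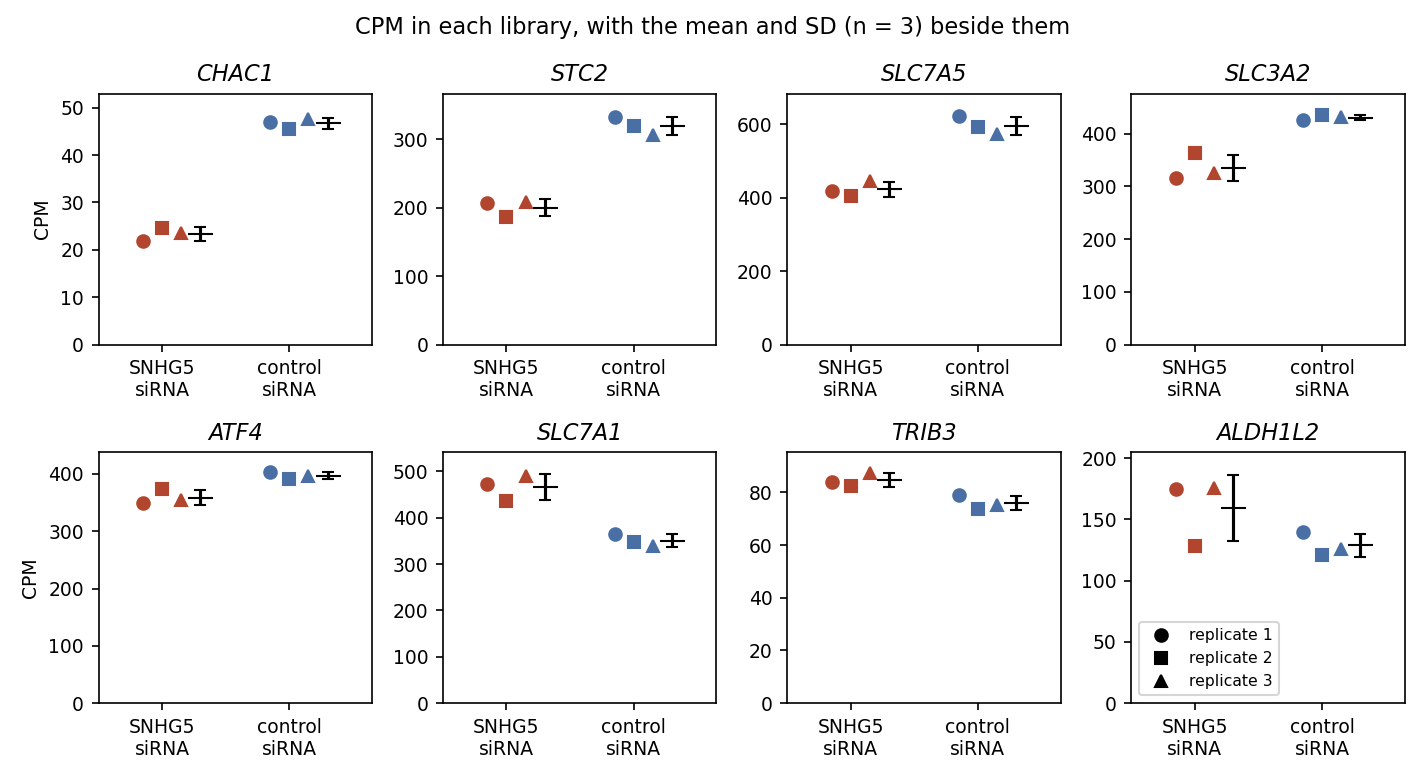
CPM of 8 of the genes in each library (symbols mark the replicate number), SNHG5 siRNA on the left and control siRNA on the right, with the mean and SD (n = 3) in black; each vertical axis starts at 0. CHAC1 libraries sit at 21.8 to 24.7 CPM with SNHG5 siRNA and at 45.4 to 47.5 CPM with control siRNA, whereas the ALDH1L2 groups overlap at SNHG5 siRNA replicate 2, at 128 CPM.

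The serine and one-carbon enzymes gave 3 lower, 1 higher and 2 not passing of 6. PHGDH, PSAT1 and PSPH carry out the consecutive steps of serine synthesis. PSAT1, the transaminase in the middle, had 341, 354 and 368 CPM with SNHG5 siRNA and 383, 373 and 435 CPM with control siRNA, a log2 fold change of -0.16 (edgeR adjusted p = 0.0291). Control siRNA replicate 3 was its highest library, and without it the log2 fold change was -0.09 and did not pass (edgeR adjusted p = 0.173). The PSAT1 call also ended without SNHG5 siRNA replicate 1, at -0.14, and on log2(FPKM + 0.1). PHGDH had 217, 237 and 225 CPM with SNHG5 siRNA and 245, 251 and 244 CPM with control siRNA. These did not overlap, but the log2 fold change of -0.12 did not pass (edgeR adjusted p = 0.0623); it passed without SNHG5 siRNA replicate 2, at -0.15, and with upper quartile scaling, at -0.16. PSPH had 99.9 ± 1.33 CPM with SNHG5 siRNA and 106 ± 3.71 CPM with control siRNA (SD, n = 3 each), with an interval from -0.19 to 0.03, and is uncertain because a pseudogene copy may take some of its reads.

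SHMT2, which turns serine into glycine in mitochondria, had 208, 223 and 216 CPM with SNHG5 siRNA and 257, 252 and 259 CPM with control siRNA. The gap between the groups was wider than either group, and SHMT2 fell by 0.25 on the log2 scale (edgeR adjusted p = 0.000552), a call that ended on log2(FPKM + 0.1), at -0.18. MTHFD2, the next mitochondrial enzyme for the one-carbon unit, had 342, 342 and 349 CPM with SNHG5 siRNA and 368, 365 and 398 CPM with control siRNA. Its fall of 0.13 passed narrowly (edgeR adjusted p = 0.0428), and the call ended without any 1 library other than SNHG5 siRNA replicate 2 (-0.15 to -0.09) and with no filter on low counts (-0.12). ALDH1L2, which oxidises the folate-bound one-carbon unit in mitochondria, rose by 0.31 (edgeR adjusted p = 0.0097), with 174, 128 and 176 CPM with SNHG5 siRNA and 139.6, 121 and 125 CPM with control siRNA. Its groups overlapped at SNHG5 siRNA replicate 2, and it did not pass DESeq2's Wald test (adjusted p = 0.108), on FPKM, or without SNHG5 siRNA replicate 1 (0.24) or control siRNA replicate 3 (0.29). At 7547 bases ALDH1L2 has the longest transcript of the 32 genes, and without SNHG5 siRNA replicate 2 its log2 fold change was 0.45.

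Of the enzymes of asparagine, proline, cysteine and phosphoenolpyruvate synthesis, 2 fell and 4 did not pass. ASNS, asparagine synthetase, had 131, 129 and 138 CPM with SNHG5 siRNA and 146, 139 and 152 CPM with control siRNA. The groups lay next to each other without overlap, and the log2 fold change of -0.14 just missed the threshold (edgeR adjusted p = 0.052). It passed with upper quartile scaling at -0.18 and with the GC trend removed at -0.16, and without SNHG5 siRNA replicate 3 or control siRNA replicate 2, at -0.17 in both. PYCR1, the mitochondrial enzyme of the last step to proline, had 67.6, 74.5 and 73.3 CPM with SNHG5 siRNA and 83.4, 81.8 and 82.7 CPM with control siRNA. It fell by 0.20 (edgeR adjusted p = 0.00784), a call that ended with the GC trend removed, at -0.10 (edgeR adjusted p = 0.17), on FPKM, at -0.08, and without SNHG5 siRNA replicate 1, at -0.16. Its exons share 408 bases with MYADML2 on the same strand. ALDH18A1, which makes the precursor of that step, had 122 ± 2.07 CPM with SNHG5 siRNA and 114 ± 4.07 CPM with control siRNA (SD, n = 3 each), and its interval ran from -0.01 to 0.21.

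PCK2, the mitochondrial enzyme that makes phosphoenolpyruvate, had 56.8, 58.3 and 62.6 CPM with SNHG5 siRNA and 69.1, 66.1 and 66.2 CPM with control siRNA, and fell by 0.18 (edgeR adjusted p = 0.0191). With the GC trend removed it had -0.08 and did not pass (edgeR adjusted p = 0.289), nor did it on FPKM (-0.08 and -0.09 with the larger and the smaller pseudocount) or without SNHG5 siRNA replicate 1 (-0.15) or control siRNA replicate 1 (-0.16). CBS and CTH, the enzymes that make cysteine from homocysteine, had the lowest FPKM of the 32 genes. CTH had 5.15, 5.43 and 4.84 CPM with SNHG5 siRNA and 5.81, 5.47 and 5.94 CPM with control siRNA, with an interval from -0.42 to 0.11. CBS had 8.53, 6.19 and 6.44 CPM with SNHG5 siRNA and 10.5, 9.26 and 6.54 CPM with control siRNA, a log2 fold change of -0.31 that did not pass (edgeR adjusted p = 0.114). CBS is uncertain, because the table also lists its near-identical copy CBSL. With the counts of both summed, an alternative chosen after seeing the data, the log2 fold change was 0.10, with an interval from -0.28 to 0.48. CBS alone passed without SNHG5 siRNA replicate 1 or without control siRNA replicate 3, at -0.48 in both, and with no filter on low counts, at -0.31.

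The amino acid transporter genes split, with 4 of 6 lower and SLC7A1 higher. SLC7A5 and SLC3A2 encode the light and heavy chain of a single exchanger that brings in leucine and other large neutral amino acids. SLC7A5 (chromosome 16, 87830023 to 87869488, minus strand) had 418, 405 and 445 CPM with SNHG5 siRNA and 621, 592 and 572 CPM with control siRNA. It fell 1.41-fold, a log2 fold change of -0.49 ± 0.05 (SE; edgeR adjusted p = 4.08e-07). SLC3A2 (chromosome 11, 62856102 to 62888875, plus strand) had 317, 363 and 326 CPM with SNHG5 siRNA and 426, 434 and 431 CPM with control siRNA. Both chains were lower in every SNHG5 siRNA library, and SLC3A2 fell 1.28-fold, by 0.36 on the log2 scale (edgeR adjusted p = 2.76e-05). Whether the chains differed in their fall was not tested.

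The neutral amino acid carriers SLC1A4 and SLC1A5, which move alanine, serine, cysteine and, for SLC1A5, glutamine, had smaller falls. SLC1A4 had 110.1, 106 and 118 CPM with SNHG5 siRNA and 129, 127 and 125 CPM with control siRNA, and its log2 fold change of -0.20 passed under every alternative tried. SLC1A5 had 591, 604 and 608 CPM with SNHG5 siRNA and 688, 662 and 628 CPM with control siRNA. Its fall of 0.13 (edgeR adjusted p = 0.0319) came to 0.04 with the GC trend removed, where it did not pass (edgeR adjusted p = 0.584), and its call also ended on FPKM (-0.055 with either pseudocount) and without SNHG5 siRNA replicate 1 (-0.12) or 3 (-0.14) or control siRNA replicate 1 (-0.10) or 2 (-0.13).

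SLC7A1, the transporter of the cationic amino acids arginine and lysine (chromosome 13, 29509410 to 29595688, minus strand), rose 1.33-fold. It had 474, 435 and 489 CPM with SNHG5 siRNA and 366, 347 and 339.6 CPM with control siRNA. The groups did not overlap, and the log2 fold change was 0.41 ± 0.05 (SE; edgeR adjusted p = 6.05e-06), with 0.37 to 0.46 over all alternatives. SLC38A2, a sodium-coupled carrier of small neutral amino acids, had 589, 632 and 642 CPM with SNHG5 siRNA and 591, 573 and 646 CPM with control siRNA. Its groups overlapped throughout, and its interval ran from -0.07 to 0.15.

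Per gene length, in the authors' FPKM, the levels of the 32 genes differed widely. PSAT1 was highest, at 152 ± 7.64 FPKM with SNHG5 siRNA and 175 ± 10.1 FPKM with control siRNA (SD, n = 3 each). SLC3A2, DDIT4, MTHFD2 and SLC1A5 followed, with means of 142 to 159 FPKM over the 6 libraries, and the ranges of these 5 genes overlapped from each to the next. SLC38A2 came after them, with a mean of 109.9 FPKM and no library as high as the lowest of SLC1A5. CHAC1 was low in both groups, at 3.99 ± 0.282 FPKM with SNHG5 siRNA and 7.66 ± 0.200 FPKM with control siRNA (SD, n = 3 each), so the largest fall was in 1 of the least abundant of the genes. CBS and CTH were at the bottom, with means of 1.47 and 0.827 FPKM over the 6 libraries.

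**Figure D3:**
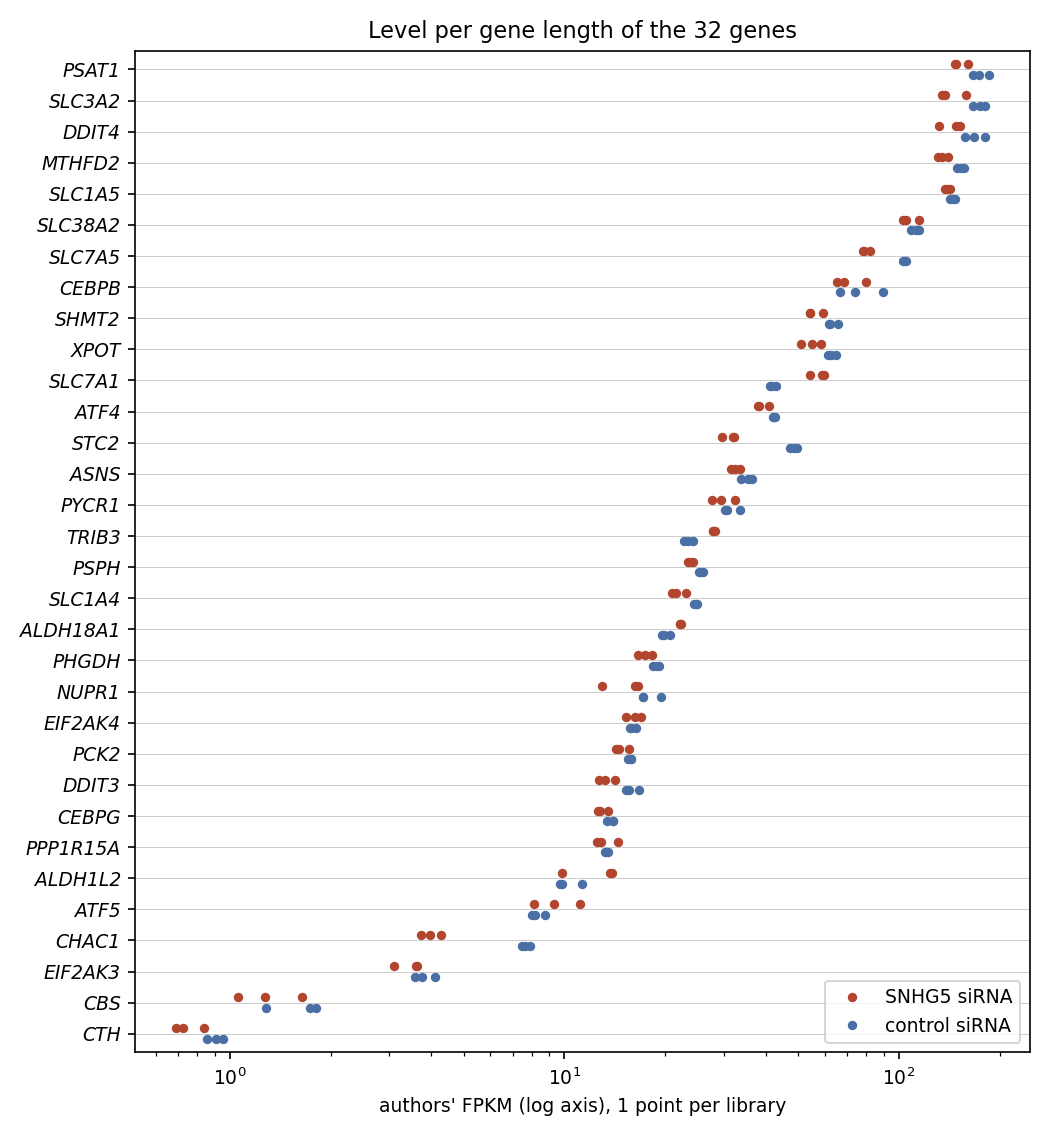
The authors' FPKM of the 32 genes on a log axis, 1 point per library, SNHG5 siRNA above control siRNA within each gene, ordered by the mean over all 6 libraries. Levels run from PSAT1, with a mean of 164 FPKM, to CTH, with a mean of 0.827 FPKM, and the groups part clearly in CHAC1, STC2, SLC7A5 and SLC7A1.

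Other genes of the pathway gave a mixed picture by branch. Over all genes tested, 19.9% were lower and 20.3% were higher, and the counts of each list stand beside those shares. Of 12 tested further ATF4-responsive genes, 8 fell and 4 did not pass, with a median log2 fold change of -0.28; FGF21 was too low to be tested. GDF15, a secreted cytokine of stressed cells, had the largest change, with 8.31, 9.41 and 8.91 CPM with SNHG5 siRNA and 24.0, 25.2 and 23.5 CPM with control siRNA, and SESN2, a leucine sensor, fell next most, with 30.1, 30.6 and 32.8 CPM with SNHG5 siRNA and 44.1, 45.7 and 44.8 CPM with control siRNA. SLC7A11, which imports cystine in exchange for glutamate and also pairs with SLC3A2, had 717 ± 45.4 CPM with SNHG5 siRNA and 988 ± 57.8 CPM with control siRNA (SD, n = 3 each), a log2 fold change of -0.46. ATF3 (-0.43) and EIF4EBP1, a repressor of cap-dependent translation (-0.30), also fell. The matching letters of the ATF4 element were also found in the windows of 4 of the 10 such genes that had a window (40%). The share was 3.59% over the genes of the count table with a window. This list too was picked as ATF4-responsive, so its higher share is a description. Among the 4, ATF3 and HERPUD1 fell and FGF21 was not tested. JDP2, named after its value was seen, did not pass (edgeR adjusted p = 0.357).

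Of 16 other amino acid transporters that were tested, 7 fell and 3 rose. These were 43.75% lower and 18.75% higher, against 19.9% lower and 20.3% higher over all tested genes. SLC7A8, another light chain for SLC3A2, had -0.90 at 0.671 ± 0.239 CPM with SNHG5 siRNA and 1.25 ± 0.196 CPM with control siRNA (SD, n = 3 each), and its call ended without SNHG5 siRNA replicate 1 (-0.86) or 2 (-0.69) or control siRNA replicate 2 (-0.76) or 3 (-0.95). SLC43A2, a carrier of large neutral amino acids (-0.87), and SLC36A1, which moves small amino acids with protons (-0.72), also fell. Those that rose were SLC7A2 (0.48), SLC7A6 (0.44) and SLC36A4 (0.21), the last pair named after their values were seen. SLC36A4 passed narrowly (edgeR adjusted p = 0.046), and its groups overlapped in CPM. SLC7A2 carries cationic amino acids as SLC7A1 does, and its call ended without SNHG5 siRNA replicate 1 (0.40) or 3 (0.46) or control siRNA replicate 1 (0.42) or 3 (0.44). SLC7A11 and SLC6A9, which both fell, stand on this list and on that of further ATF4-responsive genes.

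The eIF2 machinery moved in both directions, with 5 higher, 7 lower and 4 not passing of 16 genes. Its shares were 31.25% higher and 43.75% lower, against 20.3% higher and 19.9% lower over all tested genes. EIF2B4, a subunit of the exchange factor that reloads eIF2, fell by 0.58 on the log2 scale, with 23.4, 25.2 and 23.4 CPM with SNHG5 siRNA and 34.1, 38.5 and 34.9 CPM with control siRNA. PPP1R15B, the constitutive partner of the eIF2 phosphatase, had -0.32. Of the catalytic subunit genes, PPP1CC (0.36) and PPP1CB (0.33) rose. PPP1CA, named after its value was seen, had -0.10 and did not pass (edgeR adjusted p = 0.105).

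Other enzymes of serine, one-carbon, proline and amino group metabolism gave 6 higher and 10 lower of 30 tested. These were 20% and 33.3%, against 20.3% higher and 19.9% lower over all tested genes. The median log2 fold change of the list was 0.01, and 15 of the 30 values were below 0. Genes that rose are not named here. GCSH, a protein of glycine cleavage (-0.63), ASS1, which makes argininosuccinate (-0.51), and ALDH1L1, the cytosolic counterpart of ALDH1L2 (-0.79, at 1.27 ± 0.400 CPM with SNHG5 siRNA and 2.21 ± 0.0770 CPM with control siRNA, SD, n = 3 each), fell. The call of ALDH1L1 ended without SNHG5 siRNA replicate 2, at -0.60, and with DESeq2. GPT2, which did not pass, stands on this list and on that of further ATF4-responsive genes.

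The other arms of the unfolded protein response were counted in the same way. Of 20 tested genes of the IRE1 and ATF6 arms, 9 rose and 4 fell, with a median log2 fold change of 0.12. These were 45% higher and 20% lower, against 20.3% higher and 19.9% lower over all tested genes. The share of lower genes was thus near that over all genes. CALR, a chaperone of the endoplasmic reticulum, rose by 0.45, with 1688, 1742 and 1675 CPM with SNHG5 siRNA and 1239, 1293 and 1216 CPM with control siRNA, and SDF2L1, which works with the chaperone HSPA5, rose by 0.40. ERN1, the gene of the sensor IRE1 itself, fell by 0.79, with 10.4, 7.90 and 10.2 CPM with SNHG5 siRNA and 16.1, 16.9 and 16.4 CPM with control siRNA, and WFS1 fell by 0.39. HSPA5, the main chaperone of the compartment, had 0.09 (edgeR adjusted p = 0.123), XBP1 had 0.12 (0.0807) and ATF6 had 0.12 (0.103), and these did not pass. HERPUD1, which fell by 0.18, is counted both here and among the further ATF4-responsive genes. The difference between this list and the 32 genes was not tested.

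**Figure D4:**
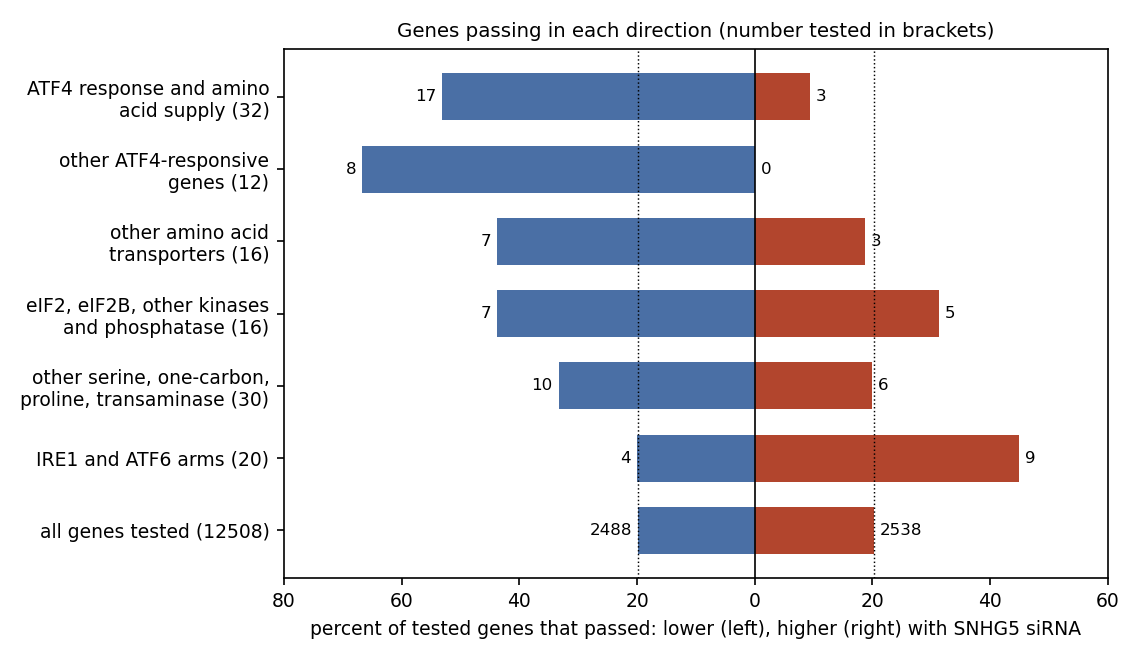
Percent of tested genes that passed as lower (left) or higher (right) with SNHG5 siRNA, for the 32 genes, 5 further lists and all genes tested (number tested in brackets, number passing beside each bar; dotted lines, the shares over all genes tested). Of the 32 genes 17 were lower and 3 higher, and of 20 genes of the IRE1 and ATF6 arms 4 were lower and 9 higher.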

How the data were processed

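The mRNA of KGN cells 48 h after transfection was sequenced in 6 libraries, 3 with SNHG5 siRNA and 3 with control siRNA. The authors deposited counts per gene and FPKM per gene. Reads were trimmed with Trimmomatic and the build was GRCh38, per the submitters' processing notes; the aligner, counter, annotation and use of strand are not given in the sources used here. Of the columns, 0 belonged to other samples.

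Deposited counts were tested with edgeR 4.0.16 (R 4.3.3; TMM, filterByExpr, quasi-likelihood test) over 12508 genes, with Benjamini-Hochberg adjustment and a threshold of 0.05; 7522 names were too low. CPM are counts over TMM-scaled library sizes, SE is the log2 fold change over the root of F, and intervals are 95%. Total counts were 18232634 to 22088913. The deposited FPKM were used for levels between genes and, as log2(FPKM + 1) or log2(FPKM + 0.1) with a minimum mean of 0.5, in limma 3.58.1; such folds understate the change of low genes. DESeq2 1.42.0, other scalings, no filter, a GC trend and each library left out were alternatives. The procedure was tested on simulated data. Gene positions, overlaps and GC content came from GENCODE, promoters from RefSeq (GRCh38.p14). Figures used matplotlib 3.10.9.

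The members and lists were chosen with earlier results of these data known. All 32 genes are named; from each other list, the 4 passing genes of largest change (where fewer than 2 pass, the 2 of highest CPM), and ATF3, SESN2, SLC7A11, EIF4EBP1, HSPA5, XBP1 and ATF6 always. Some genes that this rule or the marker lists name are not reported here.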

Additional observations from a re-analysis of the deposited data

How the results depend on the processing

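CHAC1, STC2, DDIT3, SLC7A5, SLC3A2, SLC1A4 and SLC7A1 kept their direction and passed under every alternative tried. On log2(FPKM + 1) 11 of the 32 genes fell and 3 rose, with a median log2 fold change of -0.11. Of the 11172 genes tested there, 1589 (14.2%) were lower and 19.97% higher, with a median of 0.014. On log2(FPKM + 0.1) 8 of the 32 fell and 2 rose, with a median of -0.12. Of the 11172 genes tested there, 1513 (13.5%) were lower and 18.6% higher, with a median of 0.016. Higher genes made up 58.4% of all calls with the larger pseudocount and 57.9% with the smaller, against 50.5% in the main fit. With upper quartile scaling the median was -0.18, and that over all genes was -0.05 in place of -0.01. Leaving out 1 library in turn gave 12 to 18 lower and 1 to 3 higher of the 32 genes, with a median of -0.17 to -0.14. Of all tested genes, 15.5% to 21.7% were then lower and 16.3% to 22.8% higher. Signs turned only in genes that had not passed. EIF2AK4 had -0.031 with upper quartile scaling, -0.0080 with the GC trend removed, and -0.019 to 0.049 over the settings that left out 1 library, where it turned without SNHG5 siRNA replicate 3 (-0.019) and without control siRNA replicate 2 (-0.0055). ATF5 had -0.022 without SNHG5 siRNA replicate 2 and up to 0.15 without SNHG5 siRNA replicate 1. SLC38A2 had -0.059 on log2(FPKM + 1), -0.060 on log2(FPKM + 0.1) and -0.027 with the GC trend removed, and CBS had 0.10 summed with CBSL. The cause was not tested. With the replicate number as a block, 20 of the 32 genes fell and 3 rose, PHGDH, ASNS and CBS being added, while 22.9% of all tested genes were lower and 22.8% higher. Same-numbered libraries correlated at 0.03 to 0.13 in their deviations from the group means, and differently numbered ones at -0.12 to 0.08. SNHG5 siRNA replicates 1 and 2 correlated best with their own number, and replicate 3 with control siRNA replicate 1. These small correlations do not settle whether the numbers mark pairs, and the main fit did not take them as pairs.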

Other observations

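CBSL, the near-identical copy of CBS, had 97, 3 and 71 counts with SNHG5 siRNA and 4, 9 and 9 counts with control siRNA. Its SNHG5 siRNA libraries lay on both sides of the control libraries, and it did not pass the filter on low counts.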
